A study of Homo sapiens with 21 samples.

Results

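The genes followed here move calcium ions across membranes or sense their level, and were measured in MDA-MB-453 cells, an established human breast cancer line. They are the calcium pumps ATP2A2, ATP2B1, ATP2B4 and ATP2C1, the inositol trisphosphate (IP3) receptor channels ITPR1, ITPR2 and ITPR3, the store sensor STIM1, the store-operated channel ORAI1 and the calcium-sensing receptor CASR. They were picked by name and function with earlier results of these data known, and all 10 were found among the 58735 genes of the expression table. Of these, 9 were among the 14686 genes that were tested because their mean level over all libraries was at least 0.5 FPKM (fragments per gene length and library size), and CASR was not.

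A resting cell keeps calcium low in the cytosol and high in the endoplasmic reticulum. ATP2A2 (SERCA2) pumps calcium into the reticulum, ATP2B1 and ATP2B4 (PMCA1 and PMCA4) pump it out of the cell, and ATP2C1 (SPCA1) loads the Golgi. IP3 opens the ITPR channels and lets the store empty, STIM1 in the reticulum membrane senses the loss and opens ORAI1 in the plasma membrane to refill it, and CASR is a G-protein-coupled receptor that reads calcium outside the cell.

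RNA-seq libraries were made from 7 groups of wild-type cells with 3 libraries each, to ask how calcium, cadmium and ligands of the estrogen-related receptor ESRRB change gene expression. The groups were control, 10 mM calcium, 10 μM cadmium, 5 μM GSK4716 (a synthetic agonist), 10 μM DES (diethylstilbestrol, used in the study as an ESRRB inhibitor), DES with calcium and DES with cadmium, and the treatments lasted 24 h. Before treatment all cells were held in medium with charcoal-stripped serum. Calcium and GSK4716 were then given without serum and cadmium in diluted stripped serum, and the medium of the single control group is not stated separately, so serum and treatment cannot be told apart in the comparisons with control. GSK4716 and DES were dissolved in ethanol, and in the combined groups DES was added 3 h before the metal. All libraries come from 1 cell line, and the labels do not say whether the libraries of a group were separate cultures, so the p-values measure the spread between these libraries, which may be technical.

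The libraries held between 14435925 and 28424805 fragments on genes (median 18314738), and the 9 tested genes were covered by 123 to 20139 fragments per library. The library sizes behind the FPKM values were 1.08 to 1.15 times the fragments on genes in control, 0.908 to 1.05 times in DES and 0.693 to 0.960 times in DES with cadmium, where replicate 1 was the lowest of the 21. Genes with at least 1 fragment numbered 16605 to 35112 per library. DES replicate 3 had the most, against 20363 and 22143 in the other DES libraries, and cadmium replicate 3 followed with 31147. Mitochondrial fragments were 7.70 to 8.19% of the total in control, 4.88 to 7.55% with calcium and 3.47 to 4.96% in DES. The markers ERBB2 and GATA3, listed for luminal breast epithelium, were present in every library (ERBB2 97.2 to 210.0 FPKM, GATA3 109 to 333 FPKM). Their levels differed between groups, with means in control and DES of 126 and 120 FPKM for ERBB2 and 268 and 124 FPKM for GATA3. The part of this in the results was not tested. Of the 6 markers of other cell types, KRT5, KRT14, PTPRC, COL1A2 and PECAM1 did not exceed 0.699 FPKM, while COL1A1 was found at 9.34 to 32.7 FPKM in all libraries. The sum of those 6 was 10.5 to 12.1 FPKM in control, 14.1 to 17.2 FPKM with calcium and 12.5 to 33.1 FPKM in DES, with both treated groups above all control libraries, and its part in the results was not tested. In bulk RNA, fewer cells with a transcript and less of it per cell cannot be told apart.

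Promoters are shown for a few genes because the pumps ATP2A2 and ATP2B4 fell with DES and ATP2B1 had the largest difference with calcium among the 9 tested genes, although it did not pass the test. Each line gives 250 bases upstream of a RefSeq transcript start (GRCh38.p14), 5′ to 3′ on the strand of the gene, with GC boxes (GGGCGG, either strand) in capitals. The windows are chr12:110280366-110280615 on the plus strand for ATP2A2, chr1:203626582-203626831 on the plus strand for ATP2B4 and chr12:89709367-89709616 on the minus strand for ATP2B1.
ATP2A2: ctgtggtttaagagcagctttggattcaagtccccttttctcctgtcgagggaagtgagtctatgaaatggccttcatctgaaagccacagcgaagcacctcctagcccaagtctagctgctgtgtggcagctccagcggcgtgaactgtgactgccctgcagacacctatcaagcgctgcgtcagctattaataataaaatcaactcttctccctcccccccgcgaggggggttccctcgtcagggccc
ATP2B4: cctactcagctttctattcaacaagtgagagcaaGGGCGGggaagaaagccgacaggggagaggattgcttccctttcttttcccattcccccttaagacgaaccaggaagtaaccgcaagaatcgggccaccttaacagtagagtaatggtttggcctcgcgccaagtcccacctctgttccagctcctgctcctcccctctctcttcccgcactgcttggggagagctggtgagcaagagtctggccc
ATP2B1: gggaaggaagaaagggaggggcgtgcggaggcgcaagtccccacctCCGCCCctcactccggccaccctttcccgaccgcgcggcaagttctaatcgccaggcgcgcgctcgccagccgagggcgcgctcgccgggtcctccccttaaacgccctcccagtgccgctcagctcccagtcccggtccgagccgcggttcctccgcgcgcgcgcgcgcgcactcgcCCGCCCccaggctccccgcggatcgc
The ATP2B1 window held 2 GC boxes in 75.2% G and C, the ATP2B4 window 1 in 55.6%, and the ATP2A2 window none in 54.8%, against a median of 58% G and C over all 35116 promoters searched. A further ATP2A2 start, chr12:110280997-110281246, held 4 GC boxes and 1 CCAAT sequence in 80.4% G and C, and a further ATP2B1 start, chr12:89708839-89709088, held 4 GC boxes in 80.8%. RefSeq windows were matched for 8 of the 10 genes (15 windows), not for ITPR2 and ORAI1. A GC box was held by 10 of the 15 windows, from 6 of the 8 genes, against 42.6% of all promoters. Windows of STIM1 overlap in part, so the 15 are not separate promoters. None of the 15 held TNAAGGTCA, the element bound by estrogen-related receptors (either strand), which was found in 0.854% of all promoters, or the estrogen response element (GGTCA and TGACC separated by 3 bases), found in 0.0399%. The cyclic AMP element TGACGTCA (1.65% of all promoters) and the endoplasmic reticulum stress element (CCAAT and CCACG separated by 9 bases, 0.0740%) were also not found in the 15 windows. A match describes letters only, and a missing match says nothing about binding of the factor.

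The plot of FPKM by library shows the 9 tested genes in all groups. Per gene length, ITPR3, ATP2A2 and ORAI1 had the highest control means (20.2 ± 3.38, 25.0 ± 1.46 and 19.2 ± 2.33 FPKM, SD, n = 3), and ATP2B1, ITPR2 and STIM1 the lowest (4.08 ± 0.996, 4.11 ± 0.972 and 4.89 ± 0.495 FPKM). Ordered by group mean, nearly every pair of neighbouring groups overlapped for every gene. The exceptions were ATP2B1, with a gap between GSK4716 and DES, and STIM1, with a gap between control and DES. The span from the lowest to the highest group mean was widest for ATP2B1 (7.0 times) and narrowest for ATP2C1 (1.27 times).

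**Figure D1:**
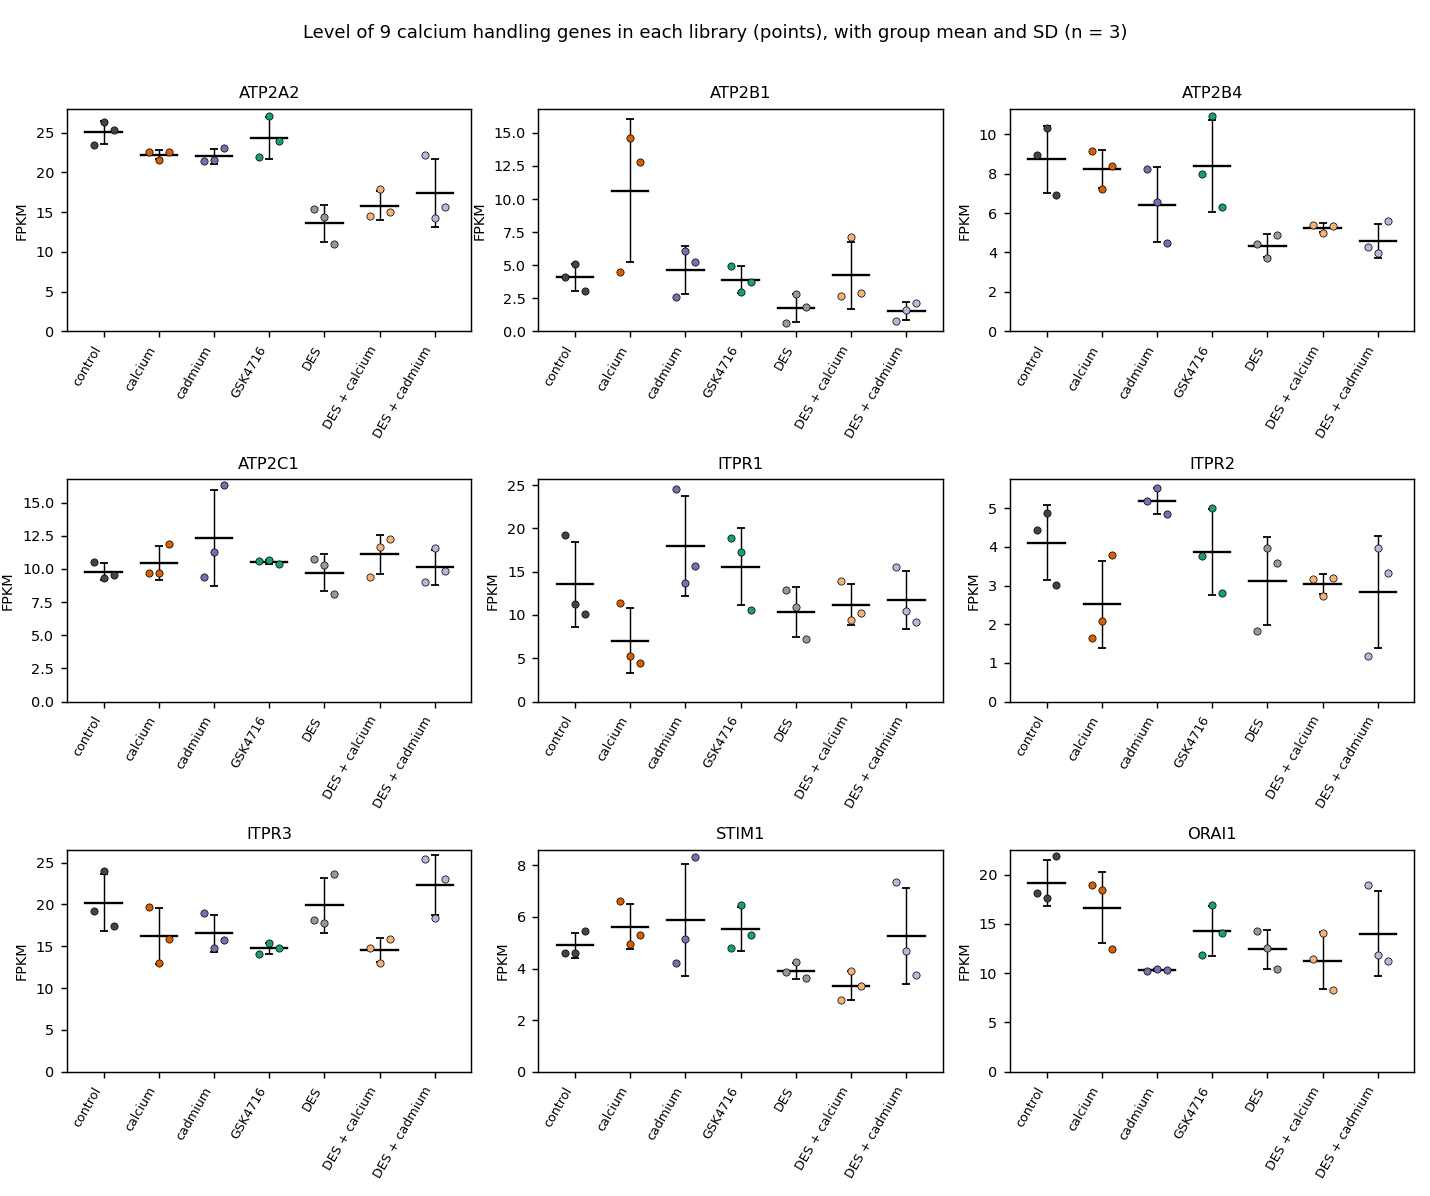
FPKM (vertical axes, linear from 0) of the 9 tested calcium handling genes in the 7 groups, with each library as a point and the group mean and SD as bars (n = 3). ATP2A2 and ATP2B4 sat lower in DES, with group means of 13.6 and 4.35 FPKM, than in control, with 25.0 and 8.73 FPKM, and 2 of the 3 calcium libraries stood above all others for ATP2B1.

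With DES, 3 of the 9 genes were lower than in control: ATP2A2, ATP2B4 and ORAI1. None was called higher. The share of all genes called was 29.6% in either direction and 12.9% lower (limma on log2(FPKM + 0.1), Benjamini-Hochberg adjusted p under 0.05). The 3 of 9 is near the share in either direction and above that of genes called lower, and with 9 genes this is a description only. All 9 differences were negative, with a median of -0.43 on the log2 scale against 0.05 over all genes tested. The libraries of control and DES did not overlap for 5 of the 9, where 48.8% of all genes tested had no overlap, and 4 of 9 had an unadjusted p under 0.05, against 43.2%. Scaling by total fragments moved the median of all genes to -0.12, and the 9 differences stayed negative and the same 3 genes were called.

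ATP2A2 (ENSG00000174437, chr12:110280756-110351093, plus strand), the pump that fills the reticulum, measured 23.4, 26.3 and 25.4 FPKM in the 3 control libraries. It measured 15.4, 14.4 and 10.9 FPKM in DES. Every DES library lay below every control library, and ATP2A2 fell by 0.89 on the log2 scale (SE 0.17, limma adjusted p = 0.0104), to 0.543 times the control mean. The call held in 6 of 6 fits with 1 library left out (adjusted p 0.00789 to 0.0476) and was lost without the filter on low values (adjusted p = 0.0573). Without DES replicate 3, the library with the most genes detected and the lowest ATP2A2 level, the log2 difference was -0.74. The other groups without DES stayed near control, at 22.5, 21.6 and 22.6 FPKM with calcium, 21.5, 21.5 and 23.1 FPKM with cadmium and 22.0, 27.2 and 24.0 FPKM with GSK4716. The calcium and the cadmium libraries were all below the lowest control library, with log2 differences of -0.17 (adjusted p = 0.355) and -0.18 (adjusted p = 0.318) that did not pass the limma test. With DES and calcium ATP2A2 measured 14.5, 17.9 and 15.0 FPKM, and with DES and cadmium 22.2, 14.3 and 15.6 FPKM. Only replicate 1 of DES with cadmium, the library with the lowest size factor, reached the range of the groups without DES.

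ATP2B4 (ENSG00000058668, chr1:203626561-203744081, plus strand), one of the pumps of the plasma membrane, measured 8.95, 10.3 and 6.94 FPKM in control and 4.45, 3.72 and 4.87 FPKM in DES. The groups did not overlap, and ATP2B4 fell by 0.98 on the log2 scale (SE 0.21, limma adjusted p = 0.0137). Its call was lost without control replicate 1 (adjusted p = 0.0644), control replicate 2 (0.0594) or DES replicate 2 (0.0516), and without the filter on low values (0.0724). Levels were 9.14, 7.20 and 8.38 FPKM with calcium, 8.26, 6.54 and 4.46 FPKM with cadmium and 7.97, 10.9 and 6.31 FPKM with GSK4716, all overlapping control. With DES and calcium they were 5.42, 4.99 and 5.36 FPKM, each above the highest DES library, for a log2 difference of 0.27 that did not pass (limma adjusted p = 0.528). With DES and cadmium they were 4.25, 3.98 and 5.59 FPKM and overlapped DES.

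ATP2B1 (ENSG00000070961, chr12:89588049-89709300, minus strand), the other plasma membrane pump measured, varied most of the 9 between libraries of a group relative to the group mean, with an SD of up to 61.7% of the mean (in DES). It measured 4.08, 5.07 and 3.08 FPKM in control, 4.48, 14.6 and 12.8 FPKM with calcium, 2.57, 6.05 and 5.26 FPKM with cadmium and 4.97, 3.00 and 3.76 FPKM with GSK4716. Calcium replicates 2 and 3 were above every other library, while calcium replicate 1 lay within the control range. The mean was 2.61 times that of control and the log2 difference 1.22 (95% interval 0.07 to 2.37), which did not pass (limma adjusted p = 0.190). Without calcium replicate 1 it was 1.75 with an adjusted p of 0.0417 in limma, so that 1 library decided the call. In DES, ATP2B1 measured 0.647, 2.81 and 1.81 FPKM, all below control, for a log2 difference of -1.35 (SE 0.49, limma adjusted p = 0.0794), which passed with limma-voom on recovered fragments (-1.47, adjusted p = 0.0316). With DES and calcium the libraries measured 2.68, 7.15 and 2.90 FPKM, and the log2 difference from DES was 1.29 (95% interval -0.20 to 2.77, limma adjusted p = 0.422). The replicate numbers of these 2 groups were taken as pairs. The level was higher with calcium in all 3 pairs, and with the pairs as a block the interval was 0.42 to 2.15 (unadjusted p = 0.0138 and adjusted p = 0.237 in limma). The effect of calcium did not differ detectably with DES (interaction 0.07, 95% interval -1.68 to 1.81). With DES and cadmium the levels were 0.806, 1.60 and 2.15 FPKM, overlapping DES.

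Together, ATP2B1 and ATP2B4 summed to 12.8 ± 2.68 FPKM in control, 18.9 ± 4.56 FPKM with calcium and 6.11 ± 0.874 FPKM in DES (SD, n = 3). ATP2B1 made up 31.7 ± 1.17% of that sum in control and 53.5 ± 18.1% with calcium, where replicate 1 held 32.9% and replicates 2 and 3 held 66.9 and 60.5%. These shares are descriptions and were not tested.

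ATP2C1 (ENSG00000017260, chr3:130850595-131016712, plus strand), the Golgi pump, varied least between group means, although over single libraries the highest value was 2.01 times the lowest, against 1.97 times for ITPR3. It measured 10.5, 9.34 and 9.50 FPKM in control, 9.67, 9.69 and 11.9 FPKM with calcium, 9.38, 11.3 and 16.3 FPKM with cadmium and 10.6, 10.7 and 10.4 FPKM with GSK4716. In the groups with DES it measured 10.8, 10.3 and 8.13 FPKM with DES alone, 9.43, 11.6 and 12.2 FPKM with calcium and 8.98, 11.6 and 9.81 FPKM with cadmium. All treated groups overlapped their reference, and no comparison passed. The 95% interval of its log2 difference between DES and control was -0.41 to 0.37. ATP2C1 and ASTE1, on the other strand, share 2.21% of the ATP2C1 exon length.

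**Figure D2:**
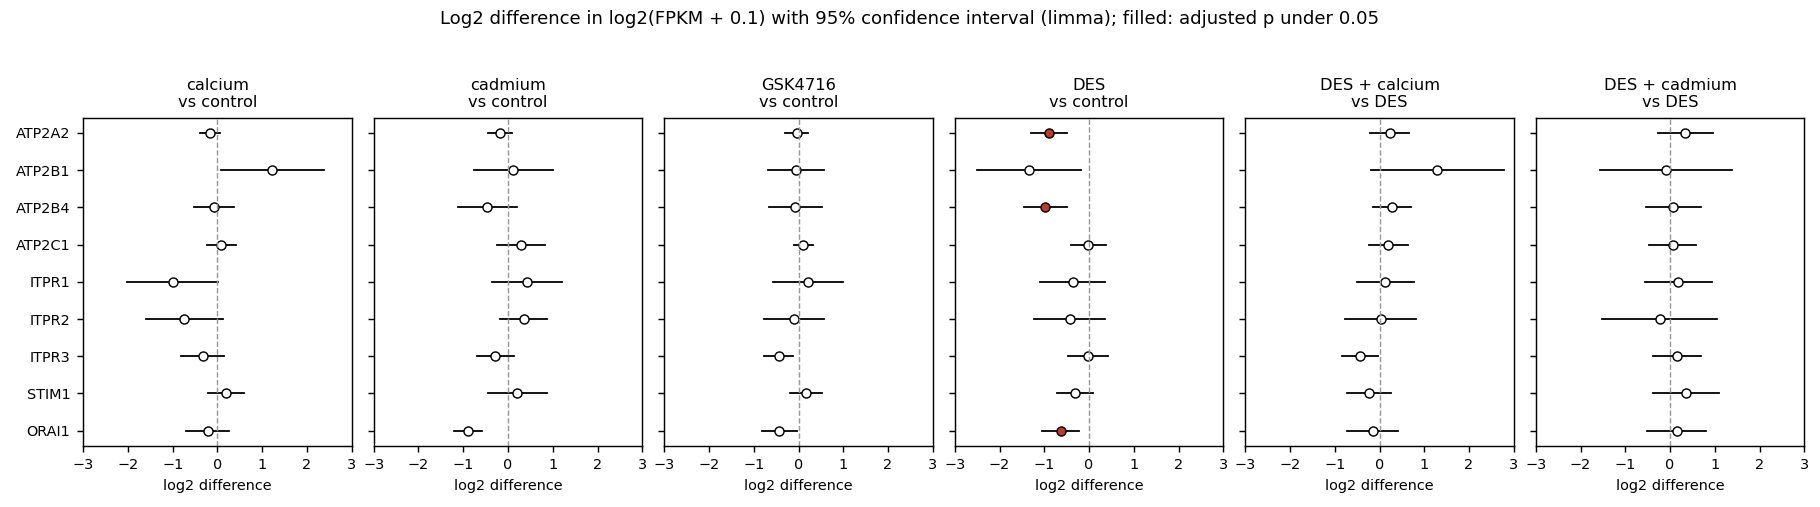
Log2 differences (horizontal axes) of the 9 tested genes in 6 comparisons, with 95% confidence intervals from limma, and filled points for an adjusted p under 0.05. The filled points are ATP2A2 (-0.89), ATP2B4 (-0.98) and ORAI1 (-0.63) in DES against control.

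Of the IP3 receptors, the channels that release stored calcium, none passed the test in any comparison. ITPR3 gave the largest part of their summed FPKM in control (53.9 ± 7.99%), followed by ITPR1 (35.3 ± 8.63%) and ITPR2 (10.8 ± 1.22%, SD, n = 3). The share of ITPR3 was 63.3 ± 2.86% with calcium and 42.0 ± 2.62% with cadmium. The summed level was 37.9 ± 6.39 FPKM in control and 25.8 ± 6.36 FPKM with calcium.

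ITPR1 (ENSG00000150995, chr3:4493345-4847840, plus strand) measured 19.2, 11.2 and 10.2 FPKM in control and 11.4, 5.24 and 4.48 FPKM with calcium. Calcium replicates 2 and 3 were the lowest of all 21 libraries, and calcium replicate 1 reached the control range. The log2 difference was -0.999 (95% interval -2.01 to 0.01, limma adjusted p = 0.217). With DES the levels were 12.9, 10.9 and 7.26 FPKM without and 13.9, 9.44 and 10.2 FPKM with calcium, and the calcium effect with DES minus that without was 1.13 on the log2 scale (SE 0.51, limma adjusted p = 0.248). ITPR1 measured 24.6, 13.7 and 15.7 FPKM with cadmium, 18.9, 17.3 and 10.5 FPKM with GSK4716 and 15.5, 10.5 and 9.21 FPKM with DES and cadmium, all overlapping their reference groups. In all 7 groups the library numbered 1 held the highest ITPR1 level. Number by number, each calcium library lay below the control library of the same number. In the comparisons with control the numbers were not taken as pairs.

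ITPR2 (ENSG00000123104, chr12:26336515-26833198, minus strand), the least abundant of the IP3 receptors, measured 4.43, 4.88 and 3.02 FPKM in control, 1.65, 2.10 and 3.79 FPKM with calcium, 5.18, 5.53 and 4.85 FPKM with cadmium and 3.77, 5.01 and 2.81 FPKM with GSK4716. Calcium replicates 1 and 2 were below the control range. The calcium difference was -0.75 (95% interval -1.61 to 0.11, limma adjusted p = 0.272) on the log2 scale. With DES it measured 1.83, 3.96 and 3.58 FPKM alone, 3.17, 2.73 and 3.20 FPKM with calcium and 1.19, 3.97 and 3.32 FPKM with cadmium, with all of these groups overlapping.

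ITPR3 (ENSG00000096433, chr6:33620365-33696574, plus strand) measured 19.2, 24.0 and 17.5 FPKM in control and 14.1, 15.4 and 14.8 FPKM with GSK4716, which did not overlap. The log2 difference was -0.44 (95% interval -0.76 to -0.12, unadjusted p = 0.0160 and adjusted p = 0.212 in limma). A difference of like size was seen between DES, with 18.1, 17.8 and 23.6 FPKM, and DES with calcium, with 14.8, 13.0 and 15.8 FPKM (-0.44, limma adjusted p = 0.345), again without overlap. ITPR3 measured 19.7, 13.0 and 15.9 FPKM with calcium, 19.0, 14.8 and 15.8 FPKM with cadmium and 25.5, 18.4 and 23.0 FPKM with DES and cadmium. For ITPR3, 10.4% of the exon length overlaps UQCC2 on the other strand, which was expressed at a mean of 10.6 FPKM, and strand-specific counting is not stated plainly, so its level is uncertain.

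ORAI1 (ENSG00000276045, chr12:121626550-121642677, plus strand), the pore of store-operated entry, measured 18.1, 17.6 and 21.9 FPKM in control and 14.2, 12.6 and 10.4 FPKM in DES. The groups did not overlap, and ORAI1 fell by 0.63 on the log2 scale (SE 0.17, limma adjusted p = 0.0346). This call held without DES replicate 1 (adjusted p = 0.0195) and was lost on leaving out control replicate 1 (0.1004), 2 (0.0779) or 3 (0.0967), DES replicate 2 (0.0891) or DES replicate 3 (0.0618). It was also lost without the filter on low values (0.137), with all 7 groups in one fit (0.0532) and with replicate numbers as a block (0.0833).

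With cadmium ORAI1 measured 10.2, 10.5 and 10.3 FPKM, below every control library and with an SD of 0.126 FPKM. The log2 difference was -0.88 (95% interval -1.20 to -0.57) and missed the threshold in limma with an adjusted p of 0.0538. It passed in limma with a pseudocount of 1 (adjusted p = 0.0497), a filter at a mean of 2 FPKM (0.0454), all 7 groups in one fit (0.0304), limma-voom (0.0390) and without cadmium replicate 1 (0.0349). It did not pass in the other 5 fits with 1 library left out (adjusted p up to 0.219), without the filter on low values, with either other scaling or with replicate numbers as a block. With DES and cadmium it measured 19.0, 11.8 and 11.3 FPKM, and the cadmium effect with DES minus that without was 1.03 (95% interval 0.35 to 1.71, unadjusted p = 0.00679 and adjusted p = 0.117 in limma). Without replicate 1 of DES with cadmium this interaction was 0.79 (limma adjusted p = 0.132). ORAI1 measured 19.0, 18.5 and 12.5 FPKM with calcium, 11.8, 17.0 and 14.1 FPKM with GSK4716 and 11.5, 14.1 and 8.26 FPKM with DES and calcium. The GSK4716 libraries were all below control (-0.43, limma adjusted p = 0.271), while calcium overlapped control.

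STIM1 (ENSG00000167323, chr11:3854527-4093210, plus strand), the sensor that opens ORAI1, measured 4.61, 4.61 and 5.47 FPKM in control and 3.85, 4.26 and 3.65 FPKM in DES. All DES libraries were lower than all control libraries, yet the log2 difference of -0.31 did not pass (95% interval -0.71 to 0.09, limma adjusted p = 0.202). Levels were 6.60, 4.93 and 5.31 FPKM with calcium, 4.21, 5.13 and 8.33 FPKM with cadmium and 4.81, 6.47 and 5.30 FPKM with GSK4716, all overlapping control. Cadmium replicate 3, where many genes were detected, held the highest level of the 21 libraries for both STIM1 and ATP2C1. With DES and calcium the STIM1 levels were 2.78, 3.91 and 3.30 FPKM, and with DES and cadmium 7.33, 4.68 and 3.75 FPKM, where replicate 1 alone exceeded the control range.

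CASR (ENSG00000036828, chr3:122183683-122291629, plus strand), the receptor for calcium outside the cell, was close to the limit of detection. Only 20 fragments fell on it in all 21 libraries, and 14 libraries had 0. The control libraries had 1, 0 and 4 fragments, cadmium 0, 3 and 1, GSK4716 0, 0 and 1, DES 0, 0 and 9 (the 9 in the library with the most genes detected), and DES with cadmium 0, 1 and 0, and both calcium groups had 0 in all libraries. With 3 fragments as the most that a count of 0 allows, the limit was 0.0118 FPKM in control replicate 2, the control library with a count of 0. This covers counting error only. No fold or test is given for CASR, and a difference between groups was not detectable at this depth.

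Calcium, the ion these proteins handle, called none of the 9 genes in limma, where 7.12% of all genes tested were called. One of 9 had an unadjusted p under 0.05 (23.5% of all genes), 1 of 9 had no overlap (29.6%), and limma-voom called 0. The median log2 difference of the 9 was -0.17, against -0.01 over all genes. Cadmium also called none in limma (0.15% of all genes), with 1 of 9 at an unadjusted p under 0.05 (25.9%), 2 of 9 without overlap (34.4%) and 1 called with limma-voom, which was ORAI1. GSK4716 called none of the 9, and 0% of all genes in limma, with 2 of 9 at an unadjusted p under 0.05 (16.4%), 2 of 9 without overlap (22.1%) and 0 called with limma-voom.

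Against DES alone, DES with calcium called none of the 9 in limma (0.136% of all genes), with 1 of 9 at an unadjusted p under 0.05 (13.2%) and 2 of 9 without overlap (19.9%). DES with cadmium also called none in limma (0.266%), with 0 of 9 at an unadjusted p under 0.05 (10.4%) and 0 of 9 without overlap (16.2%). With replicate numbers as a block, both counts were again 0, and limma-voom called 0 in both. The effect of the metal with DES minus that without was called for none of the 9 in limma, for calcium (3.63% of all genes) or cadmium (1.18%), with 1 of 9 at an unadjusted p under 0.05 in each, ITPR1 for calcium (19.9% of all genes) and ORAI1 for cadmium (18.5%), and limma-voom called 0 in both.

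Of 107 other genes of calcium handling, listed by role, 106 were in the table and 58 were tested. DES called 3 of them higher and 9 lower in limma, against 16.7% and 12.9% of all genes, with a median log2 difference of -0.13. Store-operated entry, with ORAI1 and STIM1 counted, had 7 tested genes: 4 were lower (ORAI1, ORAI2, ORAI3 and STIM2), 6 had no overlap between control and DES (48.8% of all genes), and the median log2 difference was -0.63. Of its 7 differences, 6 were negative and 1 was positive. ORAI2 and STIM2 are named after their values were seen. Of 7 tested pumps, ATP2A2 and ATP2B4 were lower and all 7 differences were negative, 3 without overlap, with a median of -0.89. The median was also below 0 for receptors and IP3 production (-0.65), entry channels (-0.42), release channels (-0.36), exchangers (-0.23) and genes of the calcium response (-0.22). It was above 0 for pump regulators (0.37), store buffers (0.28), regulators of release channels (0.21), the store leak (0.20, 1 gene) and mitochondrial uptake (0.18).

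ORAI3, a further channel of the ORAI family, measured 5.29, 5.64 and 8.31 FPKM in control and 3.45, 1.66 and 3.08 FPKM in DES, and fell by 1.24 on the log2 scale (limma adjusted p = 0.0277). STIM2, the second store sensor, measured 2.69, 3.56 and 2.33 FPKM in control and 1.54, 1.84 and 1.42 FPKM in DES (-0.78, limma adjusted p = 0.0476). ORAI2 measured 0.945, 1.02 and 0.905 FPKM in control and 0.466, 0.365 and 0.413 FPKM in DES (-1.04, limma adjusted p = 0.0406). None of these groups overlapped. The ORAI2 and ORAI3 calls were lost without any 1 control library or DES replicate 2 (adjusted p 0.0852 to 0.141 and 0.0612 to 0.0882), and the STIM2 call without any 1 library (0.0644 to 0.170). With cadmium ORAI3 measured 3.27, 2.42 and 2.14 FPKM and ORAI2 0.589, 0.762 and 0.493 FPKM, all below control, while STIM2 overlapped control. None of these cadmium differences was called in limma. Of the 7 tested genes of store-operated entry, 4 had no overlap between control and cadmium (34.4% of all genes).

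**Figure D3:**
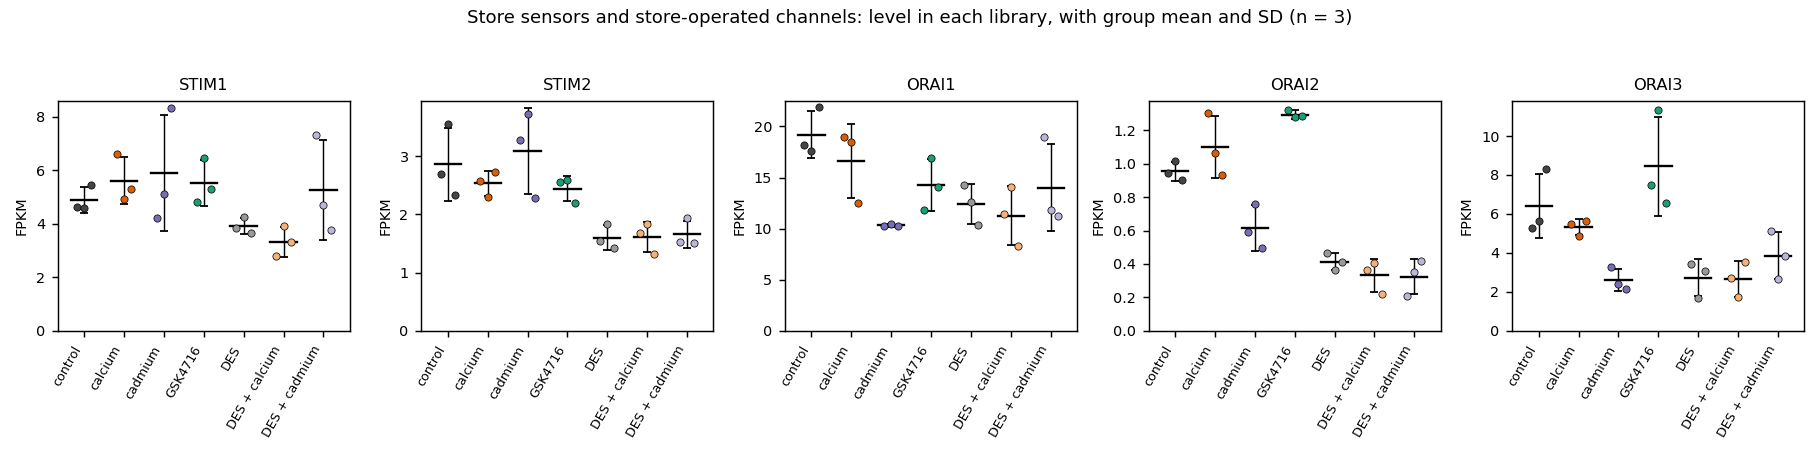
FPKM (vertical axes, linear from 0) of the store sensors STIM1 and STIM2 and the channels ORAI1, ORAI2 and ORAI3 in the 7 groups, with libraries as points and the group mean and SD as bars (n = 3). In all 5 panels the DES libraries lie below the control libraries, with group means of 0.415 against 0.956 FPKM for ORAI2 and 2.73 against 6.41 FPKM for ORAI3.

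Further genes lowered by DES were PLCB4, a phospholipase C that makes IP3 (fell by 1.20 on the log2 scale, limma adjusted p = 0.0403), the heat-gated channel TRPV1 (fell by 1.16, 0.0316), the voltage-gated channel CACNA1D (fell by 0.93, 0.0125) and GNA11, a G protein that activates phospholipase C (fell by 0.92, 0.00697). GNA11 measured 15.9, 15.4 and 18.4 FPKM in control and 9.15, 7.67 and 9.37 FPKM in DES, and was called in 6 of 6 fits with 1 library left out. CACNA1D was lost without control replicate 1 (adjusted p = 0.0661), PLCB4 without any 1 control library or DES replicate 3 (0.0557 to 0.121) and TRPV1 without any 1 control library or DES replicate 2 (0.0770 to 0.117). The 2 other genes called lower, named after their values were seen, regulate the IP3 signal: INPP5A removes a phosphate from IP3 (fell by 0.87, adjusted p = 0.0149) and ITPKB adds one (fell by 0.79, 0.0254). They are the called genes among the 7 tested regulators of release channels. INPP5A was lost without any 1 control library or DES replicate 2 (0.0514 to 0.0636), and ITPKB without control replicate 1 or 3 or DES replicate 2 or 3 (0.0577 to 0.0906). The 3 genes called higher were PLCD1, another phospholipase C (1.10, adjusted p = 0.0319), BSG, which escorts membrane proteins to the cell surface (0.88, 0.0198), and the calmodulin gene CALM3 (0.67, 0.0305). BSG measured 128, 135 and 115 FPKM in control and 289.7, 221 and 193 FPKM in DES, with no overlap. All 3 were lost without control replicate 1 or 2 (adjusted p 0.0613 to 0.117), BSG and CALM3 also without control replicate 3 (0.0650 and 0.0776), BSG and PLCD1 without DES replicate 2 (0.0617 and 0.0614), and CALM3 and PLCD1 without DES replicate 3 (0.0538 and 0.0661). Of the 12 genes called with DES, those other than GNA11 and ORAI2 were lost without the filter on low values (0.0551 to 0.270), CACNA1D also with all 7 groups in one fit (0.0735), PLCD1 with scaling by total fragments (0.0662) and STIM2 with a filter at 2 FPKM (0.0511). With replicate numbers as a block in limma, the calls of ORAI2 (adjusted p = 0.116), TRPV1 (0.0849), STIM2 (0.0772), CALM3 (0.0744), ITPKB (0.0540) and PLCB4 (0.0502) were lost.

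Calcium called 4 of the 58 higher and 1 lower in limma, against 4.6% and 2.53% of all genes. RCAN1, a calcium-induced inhibitor of calcineurin, measured 2.81, 3.00 and 3.55 FPKM in control and 7.60, 15.1 and 9.94 FPKM with calcium, and rose by 1.72 on the log2 scale (limma adjusted p = 0.0229). ITPKC, which phosphorylates IP3, measured 9.86, 8.56 and 14.3 FPKM in control and 22.3, 29.3 and 19.3 FPKM with calcium (1.12, limma adjusted p = 0.0494). PLCD3, a phospholipase C, measured 2.16, 2.16 and 3.10 FPKM in control and 6.13, 5.03 and 4.86 FPKM with calcium (1.09, limma adjusted p = 0.0358). In all of these the groups did not overlap. The calmodulin gene CALM2 measured 80.9, 88.6 and 69.8 FPKM in control and 113, 143 and 157 FPKM with calcium (0.78, limma adjusted p = 0.0494). SLC24A3, a potassium-dependent sodium/calcium exchanger, measured 8.32, 8.27 and 7.95 FPKM in control and 2.44, 2.94 and 3.12 FPKM with calcium, and fell by 1.505 (limma adjusted p = 0.00967). The SLC24A3 call was lost without control replicate 1 or 2 (adjusted p = 0.0626 and 0.0588), RCAN1 without control replicate 1 or 2 or calcium replicate 3 (0.107, 0.0990 and 0.0541), ITPKC and PLCD3 without control replicate 1 or 2 or any 1 calcium library (0.0601 to 0.178), and CALM2 without any 1 library (0.0595 to 0.176). Without the filter on low values all 5 were lost (0.0518 to 0.255). CALM2 and ITPKC were also lost with median-ratio scaling (0.0505 and 0.0529) and with scaling by total fragments (0.0877 and 0.0513), and CALM2 with all 7 groups in one fit (0.1195). With replicate numbers as a block in limma, the calls of CALM2 (adjusted p = 0.127), ITPKC (0.140), PLCD3 (0.109) and RCAN1 (0.0604) were lost. All 3 calcium libraries also had a lower mitochondrial share and a higher sum of the markers of other cells than every control library. Nearly all of that sum was COL1A1 alone, with means of 15.8 FPKM with calcium and 11.2 FPKM in control. The part of these differences in the calls was not tested. Reads of calmodulin genes can be shared with related copies, so the CALM2 and CALM3 levels are uncertain.

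Cadmium called 1 of the 58 in limma, lower, against 0.0204% of all genes called lower. ITPKA, like ITPKC a kinase of IP3, measured 2.71, 3.62 and 2.31 FPKM in control and 0.447, 0.517 and 0.465 FPKM with cadmium, resting on 16 to 22 fragments per cadmium library. It fell by 2.35 on the log2 scale (limma adjusted p = 0.0443) without overlap. The call held without cadmium replicate 1 (adjusted p = 0.0262) and was lost without any other library of the 2 groups (0.0748 to 0.212), without the filter on low values (0.0811) and with scaling by total fragments (0.0523). GSK4716 called none of the 58 in limma or limma-voom, with 16 at an unadjusted p under 0.05 (16.4% of all genes). DES with calcium or with cadmium called none against DES in either, with 5 and 0 at an unadjusted p under 0.05 (13.2% and 10.4% of all genes).

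**Figure D4:**
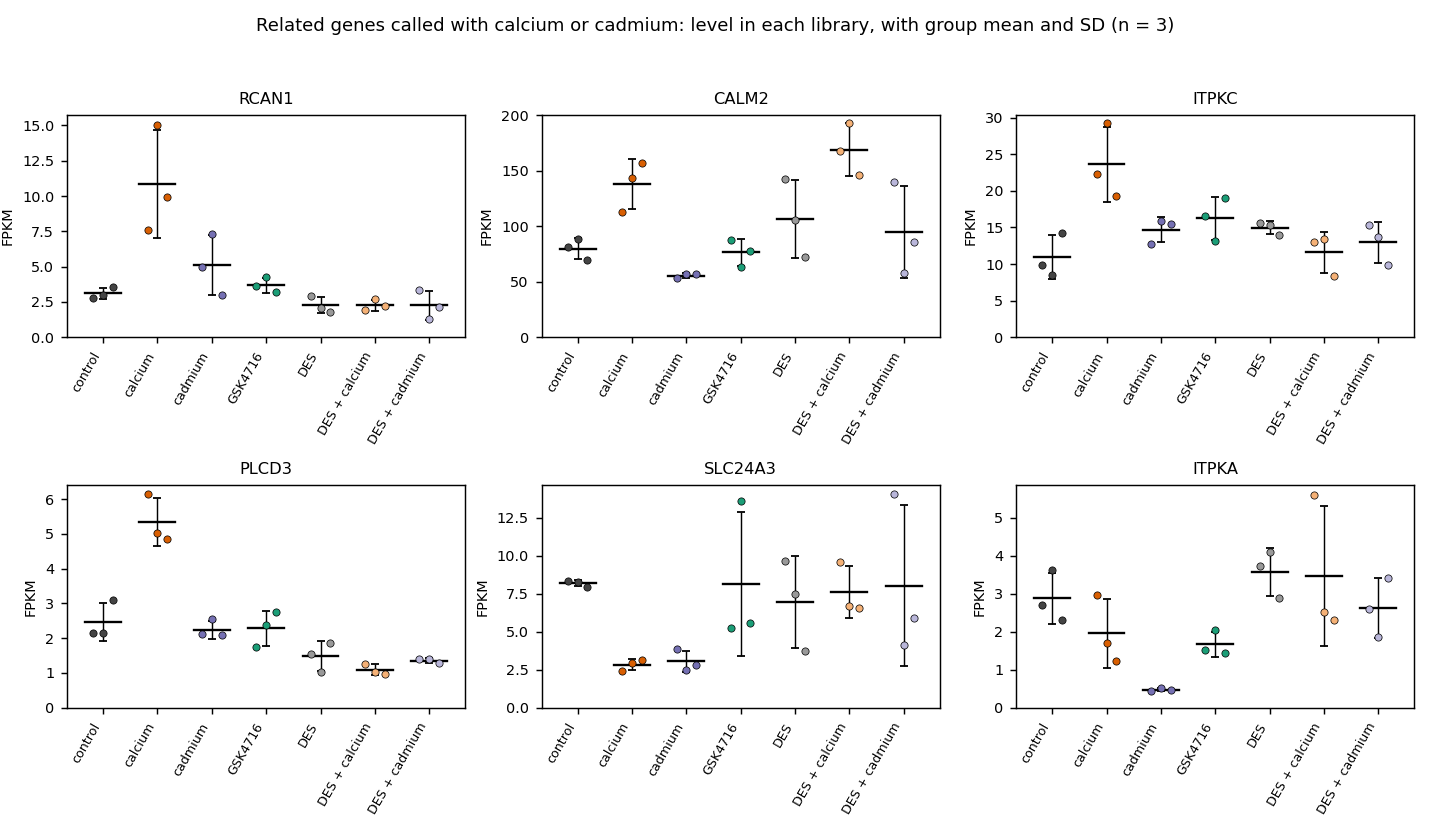
FPKM (vertical axes, linear from 0) of the 6 related genes called with calcium or cadmium in the 7 groups, with libraries as points and the group mean and SD as bars (n = 3). RCAN1, ITPKC and PLCD3 were highest in the calcium group (means of 10.9, 23.7 and 5.34 FPKM), and ITPKA was lowest in the cadmium group (mean of 0.476 FPKM).

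The gene whose pattern over the 21 libraries lay nearest to a member was found by the root mean square difference of z scores, for which the median over all genes was 1.36 to 1.41. Among these, the nearest were SLC4A7 to ATP2B1 (0.329), ICMT to ATP2A2 (0.350), LINC02593 to ATP2B4 (0.364), HLTF to ITPR2 (0.380), KIAA0930 to ORAI1 (0.516), PSMD5 to ITPR1 (0.578), VPS41 to ATP2C1 (0.610) and ZNF473 to ITPR3 (0.615). These distances share libraries and scaling and are descriptions without a test.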

How the data were processed

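RNA-seq of MDA-MB-453 cells was analysed in 21 libraries, 3 in each of 7 groups taken from the labels. The authors deposited a table of FPKM by gene, which also holds gene lengths and coordinates. The study's methods state GRCh38, and the submitters' processing notes name HISAT2 2.0.5 and featureCounts 1.5.0-p3. Whether strand was kept is stated in more than 1 way, so overlapping genes are uncertain. FPKM times gene length was a whole multiple of 1 step per library, which gave whole fragments for 100% of values (tolerance 0.05 fragments). No 2 libraries looked like copies: equal fragments were found for 4.97% of genes in the most alike pair.

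Tests used limma 3.58.1 in R 4.3.3 (lmFit, eBayes with a trend) on log2(FPKM + 0.1), which understates changes of low genes, for the 14686 genes with a mean of at least 0.5 FPKM, with only the groups compared in each of 8 fits. P-values are two-sided and Benjamini-Hochberg adjusted over all genes tested, at 0.05. The scripts were tested on simulated data. Alternatives were a pseudocount of 1, no filter, a filter at 2 FPKM, median-ratio or total-fragment scaling, all groups in one fit, a replicate block, limma-voom and leaving out each library. Tables and figures used Python 3.11.15, pandas 2.3.3, numpy 2.4.6 and matplotlib 3.10.9.

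Deviations from group means correlated between samples with the same replicate number by over 0.1 in all 3 pairs for DES with calcium and DES (0.132, 0.103 and 0.280) and for DES with cadmium and DES (0.472, 0.121 and 0.313), where the numbers were taken as pairs. For replicate 2 of DES with cadmium, a DES library with another number correlated more highly (0.27), so the pairing there is uncertain. The labels do not say what a number marks. In the comparisons with control the numbers were not taken as pairs, and each interaction holds samples of both kinds.

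The members and lists were chosen with earlier results of these data known. Named genes were the members, the called genes of the list with a mean of at least 1 FPKM (at most the 5 largest rises and 5 largest falls) and the nearest gene to each member. Exon overlaps used GENCODE and promoters RefSeq, both on GRCh38. A marker and a nearest gene are not reported here.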

Additional observations from a re-analysis of the deposited data

Results flagged for a closer look

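None of the 9 tested members differed in its response to a metal with and without DES beyond the threshold. Among the 58 related genes tested, 4 did for calcium, where 3.63% of all genes were called, and 1 for cadmium, where 1.18% were, by an interaction term in limma with Benjamini-Hochberg adjustment. The term is the log2 effect of the metal with DES minus its effect without.

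For calcium, RCAN1 had an interaction of -1.71 (SE 0.38, adjusted p = 0.0334), with 10.9 ± 3.81 FPKM with calcium against 3.12 ± 0.384 FPKM in control, and 2.27 ± 0.389 FPKM with DES and calcium against 2.28 ± 0.572 FPKM in DES (SD, n = 3). ITPKC had -1.52 (SE 0.34, adjusted p = 0.0342), PLCD3 -1.47 (SE 0.36, adjusted p = 0.0458) and SLC24A3 1.71 (SE 0.42, adjusted p = 0.0461). For cadmium, ITPKA had 1.89 (SE 0.40, adjusted p = 0.0485), with 0.476 ± 0.0364 FPKM with cadmium against 2.88 ± 0.670 FPKM in control, and 2.62 ± 0.781 FPKM with DES and cadmium against 3.57 ± 0.625 FPKM in DES. All 5 calls were lost without some single library. Of 12 fits that left out 1 library, the adjusted p stayed under 0.05 in 6 for RCAN1 (0.0331 to 0.0873 over all 12), 4 for ITPKC (0.0201 to 0.0932), 2 for PLCD3 (0.0391 to 0.126), 2 for SLC24A3 (0.0196 to 0.112) and 1 for ITPKA (0.0264 to 0.137), and no sign changed. Control replicates 1 and 2 were among the libraries whose removal ended all 5 calls. All 5 were also lost without the filter on low values (adjusted p 0.1003 to 0.226), and RCAN1 and SLC24A3 with all 7 groups in one fit (0.0864 and 0.161). ITPKA was lost in 6 of 8 other settings, which included the replicate block (adjusted p = 0.0569), a pseudocount of 1 (0.0810), a filter at 2 FPKM (0.0749), scaling by total fragments (0.0712) and limma-voom (0.0732), and the replicate numbers of DES with cadmium and DES were taken as pairs.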

How the results depend on the processing

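The 3 members called lower with DES kept their sign in 42 of 42 refits and their call in 29. The 69 member values not called changed sign in 63 of 1074 refits and became called in 7, which were ORAI1 with cadmium in 5, ATP2B1 with DES in 1 and ATP2B1 with calcium in 1. The number of members called with cadmium was 0, but 1 with a pseudocount of 1, a filter at 2 FPKM, all 7 groups in one fit or limma-voom, and 0 to 1 with a library left out. With calcium it was 0 to 1 with a library left out. With DES it was 3, but 0 without the filter on low values and 1 to 3 with a library left out.

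Of the other calcium handling genes, 5 were called with calcium, but 0 without the filter, 3 with median-ratio scaling, 9 with limma-voom and 0 to 4 with a library left out. With cadmium the count was 1, but 0 without the filter or with scaling by total fragments, 2 with a pseudocount of 1 or a filter at 2 FPKM, 3 with limma-voom, 7 with all groups in one fit and 0 to 10 with a library left out, the 10 without cadmium replicate 1. With DES it was 12, but 2 without the filter and 2 to 15 with a library left out. The interaction count for calcium was 4, but 0 without the filter, 2 with all groups in one fit and 0 to 5 with a library left out. For cadmium it was 1, but 0 with a pseudocount of 1, without the filter, with a filter at 2 FPKM, with scaling by total fragments or with limma-voom, 4 with all groups in one fit, and 0 to 1 with a library left out. Dropping the filter raises the number of genes tested to 58735, and dropping a library leaves fewer samples. The cause of the changed counts was not tested in any of these settings.

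With replicate numbers as a block, members called with DES were 2 (ATP2A2 and ATP2B4), and list genes called were 6 with DES, 1 with calcium, 0 with cadmium and 0 for the cadmium interaction. In the comparisons with control the samples share only a number, and the correlations of their deviations ran from -0.08 to 0.18. The cadmium interaction also holds DES with cadmium and DES, where the numbers were taken as pairs, and there the block ended the ITPKA call (adjusted p = 0.0569). In DES with calcium or cadmium against DES the block changed no call. With 3 libraries a group, the 95% intervals of the tested members were wide, as for ATP2B1 with calcium (0.07 to 2.37), and CASR was below what this depth can compare.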
